A study of Mus musculus with 101 samples.

Results

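Germ cells of XX and XY mouse gonads were compared at E13.5 in embryos whose lineage had received only vehicle. All embryos labelled as vehicle were taken, 17 XX and 17 XY, which makes 34 embryos beside 67 others in the series, and their sex was the sex given in the labels. F1, F2 and F3 of the vehicle lineages held 5, 6 and 6 embryos of each sex. They came from 19 dams. A brother and a sister came from each of 15 litters, so that embryos share litters across the sexes and not within a sex. The mice were of the OG2 strain on a C57BL/6J background, in which EGFP is driven by the Pou5f1 promoter, and EGFP-positive cells of each embryo's gonads with mesonephros were enriched by FACS. F0 dams of the vehicle lineages had been fed sesame oil alone during gestation, and F2 and F3 descend from such dams without further dosing. Per the methods, this feeding lasted longer for the F2 and F3 lineages than for F1, so that it differs with generation. RNA was primed with oligo(dT), and the values are normalized counts, scaled to the effective library size. The embryos had been sexed by the shape of the gonad.

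In the fetal ovary, germ cells stop dividing and enter meiotic prophase, which follows retinoic acid and BMP signals and needs STRA8. In the fetal testis, germ cells enclosed by Sertoli cells do not enter meiosis, pass through a phase of NODAL signalling and become mitotically quiescent prospermatogonia. At E13.5 both programmes are beginning, so that cells of several stages are present.

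The recovered reads of 33 vehicle libraries ran from 6393504 to 87240533, with a median of 8090014. In F1, 3 libraries exceeded 15000000 reads (XY C3774.3, XY C4232.2 and XX C4232.9), and the highest of the others had 12211582. Globin RNA stood apart in 3 XY libraries. The summed value of the erythroid markers, of which Hba-a1 and Hba-a2 were the most abundant, had a lowest, median and highest value of 0, 1.402 and 269 in XX and 0.189, 1.72 and 6630.2 in XY, and exceeded 1000 in D2580.2, D2991.3 and D1388.1. Hba-a1 and Hba-a2 have identical values, as have Hbb-b1 and Hbb-b2, so that these sums may hold the same reads more than once.

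Sertoli cell RNA moved with sex. The sum of the 15 Sertoli markers had a lowest, median and highest value of 18.97, 25.5 and 42.1 in XX and 75.7, 692 and 1338 in XY, without overlap, and 11 of 12 autosomal markers tested were called higher in XY. In XY their most abundant gene was Cst9, a cystatin of Sertoli cells, whose median was 0 in XX. The lowest XY sums were 75.7 in F3 embryo D3523.1 and 82.8 in F1 embryo C3774.3. In these bulk samples fewer cells of a type and less RNA per cell cannot be told apart, and the part of Sertoli RNA in the count of genes higher in XY was not tested. In XY the medians of the other somatic lists lay below that of the Sertoli list. In XX the endothelial median, and the macrophage median of 29.3, exceeded the Sertoli median. Sums for pregranulosa markers were at most 9.66 in XX and 22.4 in XY. Those of macrophage markers reached 44.8 and 48.6, and fetal Leydig markers 7.19 and 39.8. Stroma and mesonephros markers reached 88.2 in XY embryo D1388.1 and 32.3 in its sister D1388.3, against medians of 4.39 in XY and 3.08 in XX. Endothelial markers had medians of 52.6 and 42.97, led by Pecam1, which germ cells also express. Of autosomal markers tested, 1 of 5 for pregranulosa cells was called higher in XX and 2 higher in XY, and 2 of 4 Leydig markers were called higher in XY. None was called among 5 endothelial, 10 macrophage, 5 erythroid and 4 stroma markers. Of all autosomal genes tested, 7.42% were called higher in XX and 7.94% higher in XY.

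The markers of germ cell sex followed the labels. Stra8, the gatekeeper of meiotic entry, had a lowest, median and highest normalized count, the order used below, of 62.9, 450.5 and 743 in XX and 0, 1.23 and 14.1 in XY. Lefty2, a NODAL antagonist and target, had 0, 0.212 and 0.67 in XX and 53.7, 84.02 and 122 in XY. Tdgf1, the NODAL co-receptor Cripto, had 0, 0.216 and 1.36 in XX and 9.35, 16.97 and 35.7 in XY. None of these 3 genes overlapped between the sexes. Nanos3, an RNA-binding protein that protects germ cells, overlapped, with 29.7, 53.02 and 101.2 in XX and 37.6, 99.8 and 222 in XY. Its log2 difference, XX minus XY, was -0.95 (SE 0.19, limma adjusted p = 3.58e-05), below the 2-fold minimum for a call, with the brother higher in 12 of 15 litters. With the dam as a replicate block it was -1.01 and was called, as it was without any 1 of 4 embryos. The germ cell marker Ddx4, an RNA helicase, had a median of 530.1 in XX and 364 in XY.

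Of 12523 autosomal genes tested, 929 (7.42%) were higher in XX and 994 (7.94%) higher in XY at an adjusted p under 0.05 and more than 2-fold. The median log2 difference over all of them was -0.01. For 534 autosomal genes (4.26%) the 17 XX and 17 XY values did not overlap. Without the 3 libraries richest in globin RNA the counts were 929 and 970, and without the 3 deepest F1 libraries 916 and 979.

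**Figure D1:**
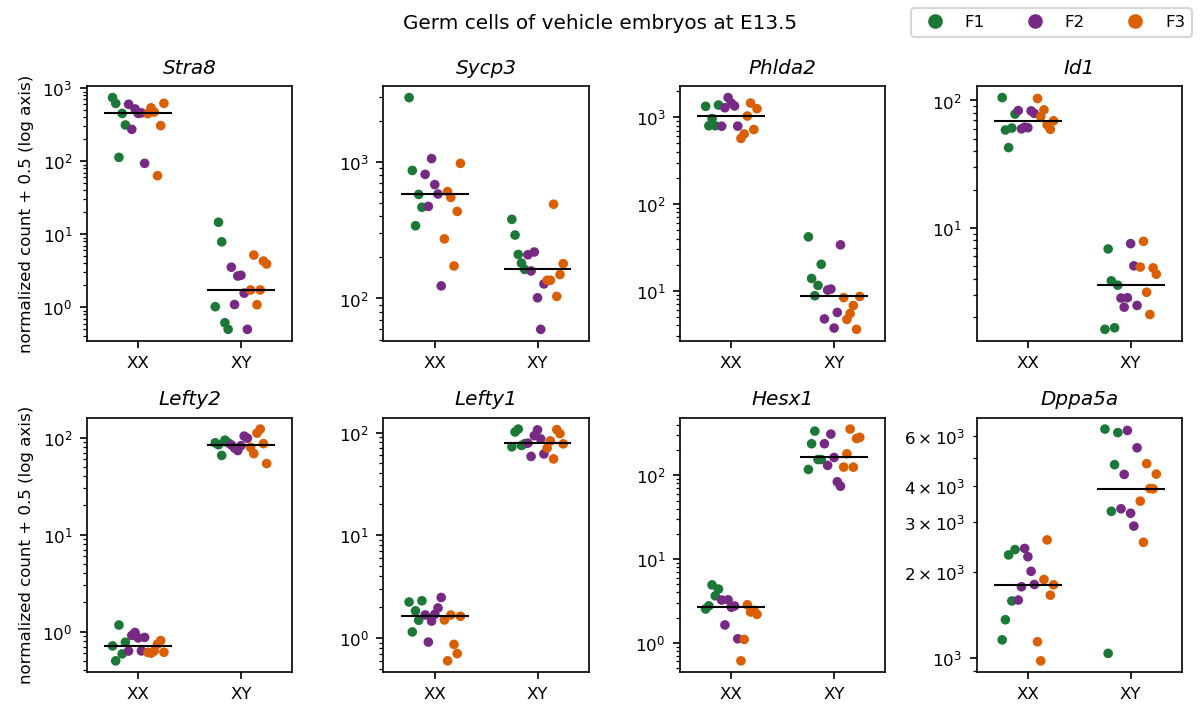
Normalized counts plus 0.5 (log axis) of 8 genes in 17 XX and 17 XY vehicle embryos. Each point is an embryo, coloured by generation, and lines are medians. Stra8, Phlda2 and Id1 lie higher in every XX embryo and Lefty2, Lefty1 and Hesx1 in every XY embryo, while Sycp3 and Dppa5a overlap.

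Meiotic entry was led by Stra8, with a log2 difference of 7.40 (SE 0.39, limma adjusted p = 5.06e-19) and a higher value in the sister in 15 of 15 litters with both sexes. Of 17 autosomal genes tested for meiotic entry and retinoic acid, 7 were called higher in XX, 3 higher in XY and 7 not called, with a median log2 difference of 0.87. The shares over all autosomal genes tested were 7.42% higher in XX and 7.94% higher in XY. Rec8, the meiotic cohesin, had 7.72, 24.2 and 41.8 in XX and 0.146, 0.872 and 5.36 in XY, a log2 difference of 3.88 (SE 0.23, limma adjusted p = 4.75e-17). The groups did not overlap. Meioc, listed under the symbol Gm1564 and needed to maintain prophase, had 7.23, 76.9 and 247 in XX and 0.581, 2.03 and 10.1 in XY, and its groups overlapped at their edges. It differed by 4.47 (SE 0.33, limma adjusted p = 1.48e-14). The retinoid-binding proteins Crabp1 and Crabp2 were higher in XX without overlap, with log2 differences of 2.50 and 2.22. Rarb, a retinoic acid receptor and target, was also higher in XX (1.67). Aldh1a1, a retinaldehyde dehydrogenase, was higher in XY, with a log2 difference of -4.39 (SE 0.39, limma adjusted p = 2.58e-12). Cyp26b1 (-1.14) and Aldh1a2 (-1.02) were also called higher in XY, with overlap and low XY medians of 0.881 and 2.83. In XY libraries D3523.1 and C3774.3, which had the lowest Sertoli sums, Aldh1a1 was 1.597 and 0.26, below all other XY libraries, whose lowest value was 13.2.

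Of 20 autosomal genes of the synaptonemal complex, cohesin and telomere attachment, 11 were called higher in XX, 0 higher in XY and 9 not called, with a median log2 difference of 1.12. The share called higher in XX over all autosomal genes was 7.42%. Sycp3, a component of the chromosome axis, had 123, 577 and 2954 in XX and 58.98, 163 and 489 in XY. The groups overlapped, although the sister was higher in 14 of 15 litters and the log2 difference was 1.66 (SE 0.27, limma adjusted p = 1.90e-06). Smc1b, a meiotic cohesin subunit, had 212, 507 and 1366 in XX and 75.4, 135 and 309 in XY, with a log2 difference of 1.97 (SE 0.18, limma adjusted p = 4.55e-12). Its groups overlapped in part. Sycp1, which bridges the paired axes, differed by 1.84 (SE 0.28, limma adjusted p = 5.66e-07). Syce2, of the central element, had medians of 1081 in XX and 799.8 in XY and a log2 difference of 0.40, which was not called.

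Of 28 meiotic recombination genes, 10 were called higher in XX, 0 higher in XY and 18 not called, with a median log2 difference of 0.75. Calls higher in XX made up 7.42% of all autosomal genes tested. Dmc1, the meiotic strand-exchange recombinase, had 26.8, 59.4 and 119 in XX and 10.03, 14.4 and 20.95 in XY, without overlap, and a log2 difference of 1.92 (SE 0.15, limma adjusted p = 1.81e-13). Meiob, a single-strand binding protein of recombination, spanned 0.858, 10.1 and 64.7 in XX and 0, 0.369 and 1.44 in XY, with overlap and a log2 difference of 3.57 (SE 0.35, limma adjusted p = 3.37e-11). Prdm9, which marks the sites of recombination, differed by 1.82 (SE 0.27, limma adjusted p = 3.16e-07). The SD over 17 XX embryos on the log2 scale had a median of 0.47 for genes of meiotic entry, 0.65 for synaptonemal genes and 0.52 for recombination genes, against 0.37 over all autosomal genes tested. It was 1.04 for Stra8 and 1.04 for Sycp3 but 0.20 for Crabp1, and these spreads were not compared by a test.

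Of 24 autosomal genes of BMP response and oogenic transcription factors, 14 were called higher in XX, 2 higher in XY and 8 not called, with a median log2 difference of 1.23. Of these, 10 did not overlap between the sexes, against 4.26% of all autosomal genes. The share called higher in XY was near the 7.94% over all autosomal genes, of which 7.42% were higher in XX. The median SD of the list among XX embryos was 0.33 on the log2 scale, near that over all autosomal genes. Id1, an inhibitor of basic helix-loop-helix factors and a direct BMP target, had 42.2, 68.7 and 105 in XX and 1.105, 3.06 and 7.36 in XY, a log2 difference of 4.31 (SE 0.18, limma adjusted p = 3.51e-22). Msx2, a homeobox factor, had 36.4, 48.9 and 64.4 in XX and 0, 1.16 and 3.55 in XY, a log2 difference of 5.04 (SE 0.21, limma adjusted p = 4.63e-22). Both genes were apart in all 34 embryos. Gata2 and the oogenic factor Zglp1 differed by 4.42 and 2.39, also without overlap, and had an SD among XX embryos of 0.18 and 0.21 on the log2 scale. Id2, Id3 and Msx1 differed by 2.72, 1.63 and 3.58. Figla, which later drives zona pellucida genes in oocytes, ranged from 1.74 to 40.7 in XX and overlapped with XY. The ligand gene Bmp4 was higher in XY, with a log2 difference of -3.01 (SE 0.22, limma adjusted p = 2.28e-14), and was 10.7 and 2.92 in the XY libraries D3523.1 and C3774.3, against 6.39, 14.2 and 27.04 in the others.

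**Figure D2:**
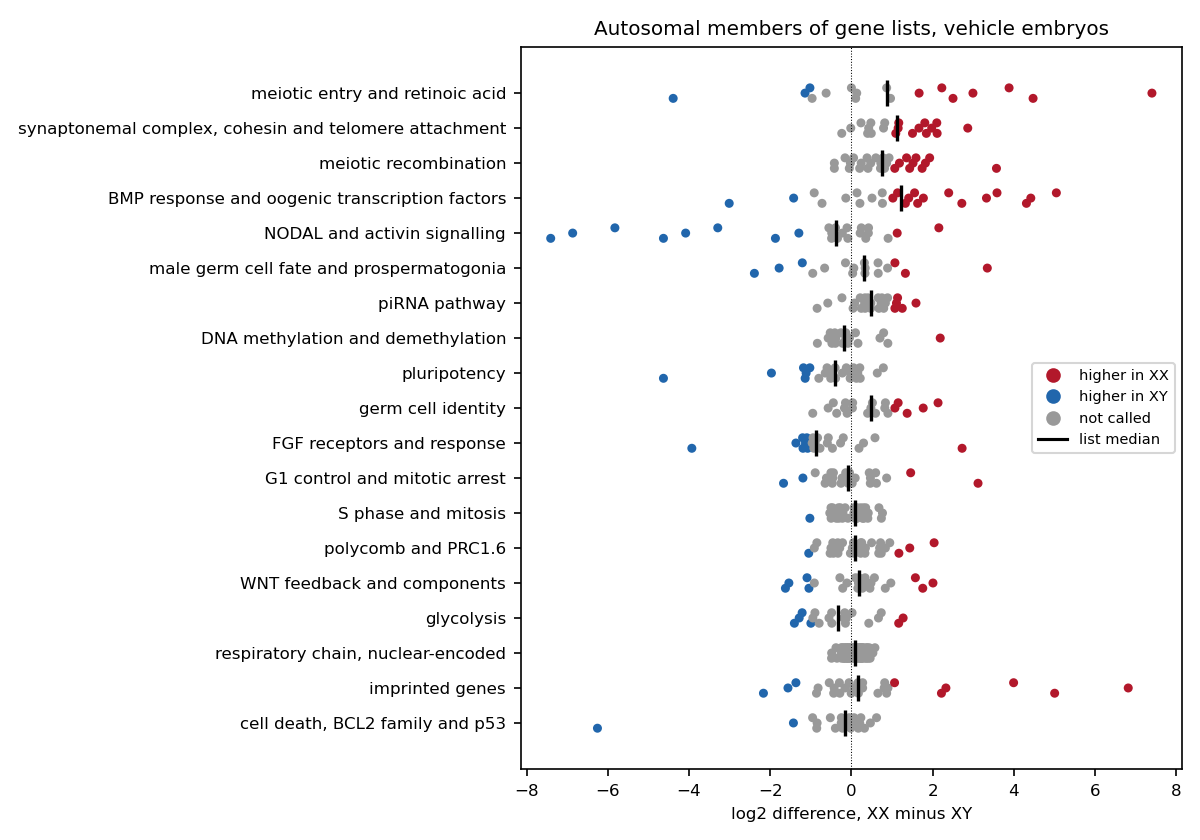
Log2 difference, XX minus XY, of the autosomal members tested of 19 gene lists in vehicle embryos. Each point is a gene, coloured by its call, and black bars are list medians. The median of the BMP list lies at 1.23 and that of the FGF list at -0.86.

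Several of the largest differences among genes higher in XY lay in the NODAL pathway. Of 24 autosomal NODAL and activin genes, 2 were called higher in XX, 8 higher in XY and 14 not called, with a median log2 difference of -0.37. The share called higher in XY over all autosomal genes was 7.94%. Calls higher in XX were a share near the 7.42% over all autosomal genes. Lefty1, an antagonist of NODAL, had 0.1, 1.13 and 1.98 in XX and 54.9, 78.3 and 108 in XY, a log2 difference of -5.83 (SE 0.15, limma adjusted p = 7.65e-29). The groups did not overlap. Lefty2 and Tdgf1 differed by -6.87 (SE 0.11, limma adjusted p = 5.41e-36) and -4.63 (SE 0.19, limma adjusted p = 1.49e-22), and the ligand gene Nodal by -3.29 (SE 0.16, limma adjusted p = 5.32e-20). The brother was higher in 15 of 15 litters for each of these 4 genes. Cfc1, a second co-receptor gene, went the other way, with 2.15.

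In the 2 XY libraries with the lowest Sertoli sums, picked after their values were seen, members of this list differed. In D3523.1 and C3774.3, Lefty2 was 122 and 88.1, against a lowest, median and highest value of 53.7, 83.8 and 111 in the other 15 XY libraries. Lefty1 was 106 and 72, against 54.9, 78.3 and 108. Tdgf1 was 28.3 and 35.7, against 9.35, 15.3 and 30.4. Nodal was 13.9 and 11.7, against 8.78, 11.8 and 24.02, so that none of these 4 genes lay below the range of the others. Inha, which encodes the inhibin alpha subunit, was 1.97 and 0.26 in these libraries, against 10.8, 20.04 and 57.3 in the others. Inhbb, which encodes an activin and inhibin beta subunit, was 0.491 and 0.26, against 0.634, 2.24 and 7.26. The cells in which these RNAs arose were not tested.

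**Figure D3:**
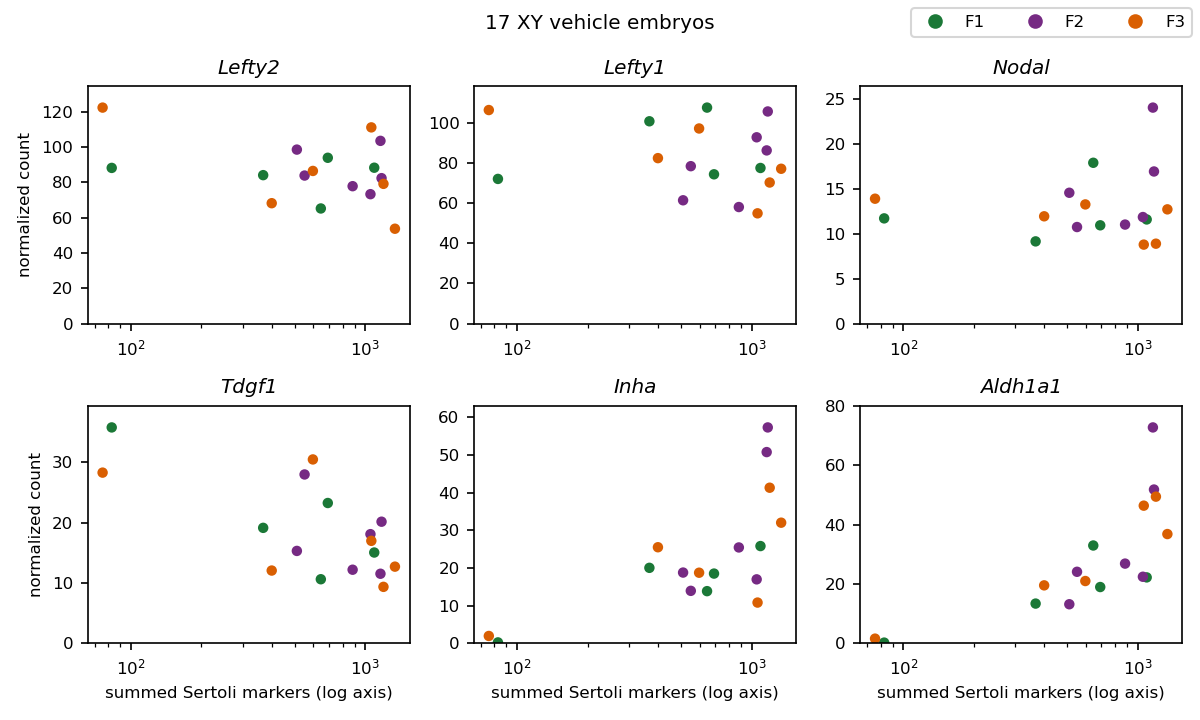
Normalized counts of 6 genes against the summed Sertoli markers (log axis) in 17 XY vehicle embryos, coloured by generation. In the 2 libraries with the lowest sums Lefty2, Lefty1, Nodal and Tdgf1 lie within or above the range of the others, and Inha and Aldh1a1 lie below it.

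Of 17 genes of male fate and prospermatogonia, 3 were called higher in XX, 3 higher in XY and 11 not called, with a median log2 difference of 0.32. Over all autosomal genes tested the shares were 7.42% higher in XX and 7.94% higher in XY. Nanos2, the RNA-binding regulator of male fate, had 0, 0 and 0.2 in XX and 0, 0.614 and 10.95 in XY, a log2 difference of -1.78 (SE 0.33, limma adjusted p = 1.68e-05). The groups overlapped, and the brother was higher in 13 of 15 litters. Lhx1 was higher in XY (-2.39) without overlap, and Tex101, a germ cell surface protein, was higher in XX by 3.34. Among 26 piRNA genes tested, 5 were called higher in XX and 0 higher in XY, with a median of 0.47. They included Mael (1.07), Tex15 (1.59) and Gtsf1 (1.11). Mael fell short of 2-fold in F3 alone (0.78), and Gtsf1 in F1 (0.69) and F3 (0.84).

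Of 24 autosomal pluripotency genes, 0 were called higher in XX, 6 higher in XY and 18 not called, with a median log2 difference of -0.40. Tdgf1 is counted here and among the NODAL genes. Other called genes in more than 1 list include Mael (male fate, piRNA and germ cell identity), Tex15 (recombination and piRNA) and Hormad1 (synaptonemal and germ cell identity). Dppa5a, an RNA-binding protein of pluripotent cells, had 974, 1799.8 and 2588 in XX and 1034, 3919 and 6336 in XY, and a log2 difference of -1.14 (SE 0.17, limma adjusted p = 6.42e-07). Its groups overlapped, and the brother was higher in 14 of 15 litters. L1td1 differed by -1.97 and Utf1 by -1.18. Pou5f1, whose promoter drives the sorted EGFP, had 10.9, 60.8 and 99.2 in XX and 38.7, 98.5 and 161 in XY, and its log2 difference of -0.80 was not called. Of 21 germ cell identity genes, 5 were called higher in XX, 0 higher in XY and 16 not called, with a median log2 difference of 0.48. Beside both lists stand shares of 7.42% higher in XX and 7.94% higher in XY over all autosomal genes.

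Of 22 FGF genes, 1 was called higher in XX, 7 higher in XY and 14 not called, with a median log2 difference of -0.86. Among all autosomal genes tested, 7.42% were called higher in XX and 7.94% higher in XY. Etv1, an FGF-responsive transcription factor, had 0.2, 0.796 and 2.73 in XX and 11.4, 21.7 and 44.9 in XY, without overlap, and a log2 difference of -3.93 (SE 0.20, limma adjusted p = 1.30e-19). Etv5 differed by -1.20 and Dusp6, a phosphatase that dampens ERK, by -1.10. Dusp6 fell short of 2-fold without the 3 deep F1 libraries (-0.97) and in F3 alone (-0.68). The receptor gene Fgfr3 was higher in XX, by 2.72. Of 23 WNT genes, 3 were called higher in XX, 4 higher in XY and 16 not called, with a median log2 difference of 0.18. The WNT feedback genes Axin2, Notum and Nkd1 were higher in XX by 1.57, 1.75 and 2.01. Those higher in XY were Frat2 (-1.63), Lgr4 (-1.54), Tcf7l2 (-1.10) and Lgr5 (-1.05).

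Of 25 genes of G1 control, 2 were called higher in XX, 2 higher in XY and 21 not called, with a median log2 difference of -0.08. Ccnd1, cyclin D1, had 27.6, 67.2 and 89.9 in XX and 1.69, 5.92 and 15.9 in XY, a log2 difference of 3.12 (SE 0.20, limma adjusted p = 2.56e-16). The groups did not overlap. Its partner kinases went the other way, Cdk4 by -1.20 and Cdk6 by -1.67, and the inhibitor gene Cdkn2d was higher in XX by 1.46. Of 38 genes of S phase and mitosis, 0 were called higher in XX, 1 higher in XY and 37 not called, with a median log2 difference of 0.09. The one called was Aurkb, a mitotic kinase, at -1.02, close to the 2-fold minimum, and the call was lost without the deep F1 libraries (-0.96) and in F3 alone (-0.90). Of 33 polycomb genes, 3 were called higher in XX, 1 higher in XY and 29 not called, with a median log2 difference of 0.08. Cbx8 was higher in XX (2.03) and Phc1 in XY (-1.05). The shares of G1 and polycomb genes called higher in XX were near the 7.42% over all autosomal genes, and that of G1 genes called higher in XY was near the 7.94%. Of 20 genes of DNA methylation, 1 was called higher in XX, 0 higher in XY and 19 not called, with a median log2 difference of -0.18. The one called was Gadd45a (2.19).

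The gene with the highest mean count among those called higher in XX was imprinted. Phlda2, which restrains placental growth, had 568, 1029 and 1679 in XX and 3.101, 8.11 and 41.3 in XY, a log2 difference of 6.81 (SE 0.23, limma adjusted p = 6.70e-25). Its neighbour Slc22a18 had 30.6, 42.4 and 65.6 in XX and 0.293, 0.92 and 1.82 in XY, a log2 difference of 5.003 (SE 0.14, limma adjusted p = 9.82e-28). Both were apart in all 34 embryos. Cdkn1c of the same imprinted cluster overlapped and differed by 0.87. Of 29 imprinted genes tested, 6 were called higher in XX, 3 higher in XY and 20 not called, with a median log2 difference of 0.16. Calls higher in XX were 7.42% over all autosomal genes. The share called higher in XY was near the 7.94% over all autosomal genes. Plagl1 and Igf2 were higher in XX by 3.99 and 2.32, and Mest was higher in XY (-2.17).

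Of 20 autosomal glycolysis genes, 2 were called higher in XX, 4 higher in XY and 14 not called, with a median log2 difference of -0.34. Calls higher in XX were a share near the 7.42% over all autosomal genes. The lactate dehydrogenase genes differed in direction. Ldhb had 459, 723 and 1135 in XX and 999.8, 1642 and 1835 in XY, a log2 difference of -1.22 (SE 0.10, limma adjusted p = 9.03e-13), whereas Ldha was higher in XX by 1.27. Eno1, enolase, differed by -1.41. Of 72 autosomal respiratory chain genes, 0 were called higher in XX, 0 higher in XY and 72 not called, with a median log2 difference of 0.09. Of 21 genes of cell death, 0 were called higher in XX, 2 higher in XY and 19 not called, with a median log2 difference of -0.17. Pmaip1, the BH3-only protein NOXA, had 0, 0.621 and 2.41 in XX and 33.02, 85.9 and 211 in XY, without overlap, and a log2 difference of -6.26 (SE 0.19, limma adjusted p = 1.28e-26). The other gene called was Bok (-1.43), and the share called was near the 7.94% over all autosomal genes. Trp53 differed by -0.85 and was not called.

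Further genes were among those with the largest differences at a mean of at least 50 and no overlap. Higher in XX were Sct, the hormone secretin (5.07), Calcoco2, an autophagy receptor (4.91), Dync1i1, a dynein intermediate chain (4.23), D6Mm5e (3.03), Mxd4 (2.56) and Mdk, the growth factor midkine (2.53). Gstp1, a glutathione transferase, was among the 5 genes of highest mean called higher in XX, with medians of 569 in XX and 241 in XY. Higher in XY were Hesx1, a homeobox repressor (-6.25), Cthrc1 (-5.16) and Schip1 (-3.85), with which Iqcj-schip1 shares exons. Cst9 (-9.04) and Ptgds (-6.64) are Sertoli markers. Gm10391 and Gm10394 had like values, as had D14Ertd449e, Gm10395 and Gm9746, and these values are uncertain because near-identical copies could share reads.

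The sex difference was also tested for variation with generation. With limma, 0 of 13182 genes passed an adjusted p of 0.05 and 158 (1.2%) had an unadjusted p under 0.05. With no differences a share of about 0.05 would be under that cut, so that the test appeared conservative here. With edgeR on recovered reads the counts were 0 and 223 of 13178. With limma the unadjusted count was 337 with the dam as a replicate block, 306 without the globin-rich libraries and 254 without XY C4321.1 alone. It was 253 of 15423 genes with no filter and 55 of 8519 with a minimum mean of 5, and 0 genes passed in each. A count of 0 does not show that the generations were alike. For Phlda2 the log2 difference was 5.96 in F1, 7.12 in F2 and 7.22 in F3, and for Lefty2 -6.87, -6.75 and -6.98.

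The 67 embryos of lineages exposed to BaP, at the low, mid and high dose together, share no sample with the vehicle embryos. They were fitted with generation and dose as terms. In them 828 autosomal genes (6.53%) were higher in XX and 844 (6.65%) higher in XY. Of the genes called in vehicle embryos, 723 higher in XX and 773 higher in XY were also called there, which are 77.8% and 77.8% of the vehicle calls and 87.3% and 91.6% of the calls in exposed lineages. The log2 difference of Stra8 there was 6.85 and that of Lefty2 -6.49.

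X-linked genes were kept apart, because the sexes differ in X dosage. Of 535 tested, 138 (25.8%) were higher in XX and 33 higher in XY, and the median log2 difference over all was 0.57.

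Promoters of 4 meiotic genes are shown, since all 4 genes were higher in XX, although Hormad1 (1.15) fell short of 2-fold in F3 alone (0.82). They are RefSeq promoters of GRCm38.p6, from 250 bases before to 50 after the gene start, and where a gene has several the first listed was taken. Capitals mark the E-box CACGTG, the E2F motif TTCCCGCC and the STRA8-type motif CNCCTCAG on either strand, which occur in 7.15%, 2.19% and 7.94% of all 32851 promoters. Of 20 promoters found for 28 meiotic genes called higher in XX, 4, 4 and 2 held them. TGTGNATT and GGCGCC, not marked, occur in 3.6% and 11.9% of all promoters and in 0 and 6 of these 20. The promoter of Stra8 (chr6:34920698-34920997, plus strand) held none of the marked motifs and 1 GGCGCC, that of Sycp3 (chr10:88459337-88459636, plus strand) held 2 E-boxes, that of Sycp1 (chr3:102936051-102936350, minus strand) held 1 E-box and 1 STRA8-type motif, and that of Hormad1 (chr3:95559427-95559726, plus strand) held 2 E-boxes and 1 E2F motif. A match is a description of the letters and not of binding.
Stra8: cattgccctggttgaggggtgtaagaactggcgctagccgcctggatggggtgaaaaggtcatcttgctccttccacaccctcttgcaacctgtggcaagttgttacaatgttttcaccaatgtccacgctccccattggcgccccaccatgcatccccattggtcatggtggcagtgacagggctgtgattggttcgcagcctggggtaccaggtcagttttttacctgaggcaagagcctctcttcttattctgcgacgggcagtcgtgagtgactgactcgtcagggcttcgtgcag
Sycp3: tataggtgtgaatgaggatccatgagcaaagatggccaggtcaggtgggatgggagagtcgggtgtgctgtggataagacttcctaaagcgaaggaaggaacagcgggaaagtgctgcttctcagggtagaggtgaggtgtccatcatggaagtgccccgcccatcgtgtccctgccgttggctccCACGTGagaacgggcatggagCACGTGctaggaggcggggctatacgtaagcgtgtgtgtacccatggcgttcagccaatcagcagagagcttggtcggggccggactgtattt
Sycp1: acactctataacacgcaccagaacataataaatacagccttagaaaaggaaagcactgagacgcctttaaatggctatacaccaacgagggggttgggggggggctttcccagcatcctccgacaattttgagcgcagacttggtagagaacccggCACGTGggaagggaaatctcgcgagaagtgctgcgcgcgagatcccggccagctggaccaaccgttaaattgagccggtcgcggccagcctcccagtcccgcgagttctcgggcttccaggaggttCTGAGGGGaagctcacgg
Hormad1: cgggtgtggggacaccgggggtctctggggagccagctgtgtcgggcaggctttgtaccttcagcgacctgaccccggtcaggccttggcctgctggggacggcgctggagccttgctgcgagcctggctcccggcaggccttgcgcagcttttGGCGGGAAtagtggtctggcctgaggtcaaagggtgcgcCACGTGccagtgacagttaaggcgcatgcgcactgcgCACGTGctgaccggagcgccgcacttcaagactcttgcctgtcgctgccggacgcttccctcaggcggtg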

How the data were processed

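RNA-seq values of 17 XX and 17 XY vehicle embryos were analysed. Per the labels and methods, the authors used Trim Galore for trimming, STAR for alignment to GRCm38, Rsubread for counting and edgeR (TMM) for normalization, and the deposited signal values are these normalized counts of 15423 genes. Per library, 100% of values above 0 lay within 0.05 of a whole multiple of 1 step, from which reads were recovered in 33 of 34 libraries. In D1388.3 this step is too near a power of 10 to be told from rounding, and it was left out of count tests only.

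Sex was tested in R 4.3.3 with limma 3.58.1 (empirical Bayes, trend) on log2(normalized count + 0.5) with generation as a term. The 13182 genes whose mean reached 0.5 entered the test, with Benjamini-Hochberg adjustment over all of them and two-sided tests. Differences are XX minus XY on this scale, which understates those of low genes. Recovered reads were tested with edgeR 4.0.16, which called 1184 autosomal genes higher in XX and 1340 higher in XY. Genes were placed by RefSeq and GENCODE on GRCm38, and 134 had no position. Named genes were drawn from members of the lists and, in each direction, the 12 autosomal genes with the largest difference among those called with a mean of at least 50 and no overlap, and the 5 called with the highest mean. Members and lists were chosen with earlier results of these data known. The members of lists that the text names were picked with their values known, as were the 2 XY libraries with the lowest Sertoli sums and the 4 promoters shown. Lists are described by counts and medians and were not tested as sets. Among the 33 libraries with recovered reads none was a copy of another of its sex, as 256 pairs had chi-square values of at least 5.66 per degree of freedom. Methods were tested on simulated data.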

Additional observations from a re-analysis of the deposited data

How the results depend on the processing

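The numbers of autosomal genes higher in XX and in XY moved by over 1.5 times only where fewer genes were tested or the fold minimum changed. They were 405 and 451 with a minimum mean of 5, 3498 and 3633 with no fold minimum, and 160 and 217 at more than 4-fold. X-linked genes higher in XX numbered 315 with no fold minimum and 24 at more than 4-fold. In the exposed lineages the autosomal counts were 352 and 409 with a minimum mean of 5. Leaving out each embryo in turn gave 910 to 961 genes higher in XX, 958 to 1024 higher in XY, 130 to 142 X-linked genes higher in XX, and 0 genes that varied with generation. With the dam as a replicate block the counts were 971 and 1049, and with edgeR's quasi-likelihood test on recovered reads 1184 and 1340. Litter numbers come from the labels, and brother and sister had residual correlations from -0.21 to 0.44, above 0.1 in 11 of 15 litters. Of 93 genes examined singly none reversed. Calls were lost in 14 and gained in 2 of their results under other settings, most of the losses within single generations, and Dusp6 was -0.97 without the deep F1 libraries. Aurkb was -0.96 there, and fell short of 2-fold without any 1 of 8 embryos, XX C4232.9, D2991.1, D2996.1 and D3651.2 or XY C4605.1, D3133.5, D1388.1 and D3523.1. Nanos3 passed 2-fold with the dam as a replicate block (-1.01) and without any 1 of XX C4992.1 and D3526.1 or XY D3001.1 and D3402.3. Spo11, which was not called, passed it without XX D3526.1 or XY C4232.2. The libraries richest in globin RNA were left out as an alternative chosen after seeing the data, as was edgeR for the variation with generation. At these depths low genes such as Nanos2 rest on few reads.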
